A study of Homo sapiens with 4 samples.

Results

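Mucin genes were examined in a ChIP-seq map of H3K9la (histone H3 carrying a lactyl group on lysine 9) in KYSE30, an established line of oesophageal squamous carcinoma. The 10 genes were MUC16, MUC1, MUC4, MUC13, MUC15, MUC20, MUC21, MUC2, MUC5AC and MUC5B, out of 19974 protein-coding genes on the autosomes and chromosome X. They were chosen by family, with the H3K9la regions at MUC16 and its relatives in both lists in view, that is, selected on the region extents and values described here, so their coverage is given as a description and no test was made on it. The study has an arm named sg3 and an arm named V2, both of KYSE30 cells grown in DMEM with serum, and its title presents SIRT3 as an eraser of the mark. The labels do not explain either name. Each arm has 1 anti-H3K9la ChIP library, 1 input library and 1 deposited peak list, with no replicates, so each difference below is between 2 lists and has no replicate check. The deposited V2 list hangs on the input sample of that arm, and it is read here as the arm's ChIP list.

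Mucins are heavily O-glycosylated proteins that coat epithelial surfaces. The secreted, gel-forming ones (MUC2, MUC5AC and MUC5B) build mucus, and the membrane-bound ones (MUC1, MUC4, MUC13, MUC15, MUC16, MUC20 and MUC21) stay on the cell surface, where several take part in signalling and adhesion. Histone lactylation uses lactate-derived lactyl groups and has been found at promoters and enhancers of active genes. The presence of the mark says nothing direct about transcript levels. In the lists a region is 1 record of the peak caller, with a fold enrichment at its summit and a -log10 q, both the authors' values, which rank regions within their own list only. All regions overlapping a gene or lying within 50 kb of it were taken (the gene's window), on build hg38.

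Of the 10 genes, 5 had a RefSeq promoter window (GRCh38.p14) to print. The starts of MUC15, MUC20, MUC21, MUC5AC and MUC5B were not in that set and were not examined. Shown are the windows of the 3 genes in the set whose start lay in an H3K9la region in either list. Each has 250 bases before the start and 50 from it on. The second MUC1 start in that set lies a few bases from the one shown. Capitals mark matches on either strand to the TATA box letters TATAAA, the CCAAT box, the GC box letters GGGCGG and TGANTCA (N, any base). The last pattern is wider than the AP-1 core, whose middle base is C or G. Both TGANTCA matches shown have A there, so neither is that core.
MUC16, first start (chr19:9065702-9066001, minus strand): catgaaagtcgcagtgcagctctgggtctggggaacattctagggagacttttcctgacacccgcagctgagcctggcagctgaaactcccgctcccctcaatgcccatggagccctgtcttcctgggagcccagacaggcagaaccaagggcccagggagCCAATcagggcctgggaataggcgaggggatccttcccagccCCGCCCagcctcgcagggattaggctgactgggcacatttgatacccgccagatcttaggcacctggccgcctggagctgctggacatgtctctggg
MUC16, second start (chr19:9010360-9010659, minus strand): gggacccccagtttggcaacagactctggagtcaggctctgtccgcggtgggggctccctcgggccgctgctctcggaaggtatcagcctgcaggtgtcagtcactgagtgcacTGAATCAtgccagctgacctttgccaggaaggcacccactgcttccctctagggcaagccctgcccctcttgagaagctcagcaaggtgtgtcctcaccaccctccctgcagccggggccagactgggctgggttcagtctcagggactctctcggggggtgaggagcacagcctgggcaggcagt
MUC1 (chr1:155192866-155193165, minus strand): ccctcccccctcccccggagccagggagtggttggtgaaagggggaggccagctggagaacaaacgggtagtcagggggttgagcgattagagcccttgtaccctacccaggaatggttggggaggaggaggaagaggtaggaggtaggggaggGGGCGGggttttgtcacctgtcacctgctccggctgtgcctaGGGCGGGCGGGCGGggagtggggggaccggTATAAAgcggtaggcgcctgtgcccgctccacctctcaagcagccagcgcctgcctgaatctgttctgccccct
MUC2 (chr11:1074624-1074923, plus strand): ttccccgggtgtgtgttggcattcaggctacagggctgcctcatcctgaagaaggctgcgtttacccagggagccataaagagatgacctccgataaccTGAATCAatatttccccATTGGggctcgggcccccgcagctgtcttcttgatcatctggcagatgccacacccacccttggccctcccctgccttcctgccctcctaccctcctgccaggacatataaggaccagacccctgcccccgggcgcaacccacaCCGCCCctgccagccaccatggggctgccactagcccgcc
The first MUC16 window held a CCAAT match that begins 89 bases before the start and a GGGCGG match on the opposite strand 47 bases before it, and the second held 1 TGANTCA match 136 bases before the start. The MUC1 window held TATAAA 24 bases before the start and 4 GGGCGG matches, 3 of which overlap one another. The MUC2 window held TGANTCA 151 bases before the start, CCAAT on the opposite strand at 134 bases, and GGGCGG on the opposite strand at base 11 after it. Of 34961 promoter windows of this length, the TATA box letters were held by 11.5%, the CCAAT box by 34.6%, the GC box letters by 45.0% and TGANTCA by 7.68%. CpG counts were 8 and 7 in the MUC16 windows, 13 in that of MUC1 and 9 in that of MUC2, and the median window had 14. A match is a string of letters and not a measured binding site.

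H3K9la at the mucin genes was concentrated at MUC16, with a smaller group of regions around MUC1 and a few near MUC2, MUC4, MUC20 and MUC15. In the sg3 list 7 of the 10 genes had a region in their window, and in the V2 list 6 did. Over all protein-coding genes 78.3% had one in sg3 and 64.4% in V2, so these counts are near the background. Regions overlapping the gene itself were found at 4 of the 10 in sg3 (MUC16, MUC1, MUC20 and MUC2) and at 3 in V2 (MUC16, MUC1 and MUC20), beside 51.9% and 33.7% of all genes. The windows held 54 sg3 regions and 56 V2 regions, counted once where windows overlap. MUC16 had 22 of these in sg3 and 31 in V2. Covered bases over all windows came to 110.7 kb in sg3 and 92.0 kb in V2, a ratio of 1.20. The MUC16 window supplied 71.0% of the sg3 bases and 80.6% of the V2 bases, and the other windows together had 32.1 kb in sg3 and 17.8 kb in V2, a ratio of 1.80.

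**Figure D1:**
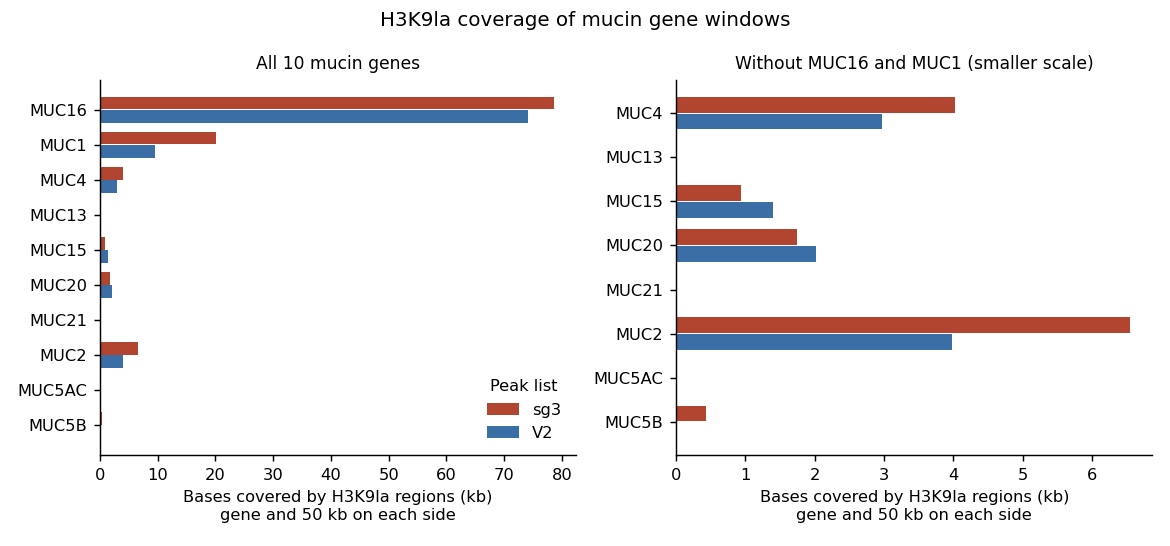
Bars show the bases covered by H3K9la regions, in kb, in the window of each mucin gene, for the sg3 list (upper bar) and the V2 list (lower bar); the right panel leaves out MUC16 and MUC1 and has a smaller scale. MUC16 has 78.6 kb in sg3 and 74.2 kb in V2, while MUC13, MUC21 and MUC5AC have no region in either list.

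Of the 7 members with a region in either list, 5 had more covered bases in sg3 and 2, MUC15 and MUC20, had more in V2. The direction turned under other settings for MUC15 (ratio of sg3 to V2 1.26 with windows of 10 kb) and MUC20 (1.05 at a -log10 q of at least 5 and 2.11 with windows of 100 kb). It also turned for MUC4 (0.407 at a -log10 q of at least 10, and down to 0.153 in lists of equal length). Lists of equal length cut only the sg3 list, so a ratio can only fall or stay there. Among all genes with a region in either list, 96.4% had more in sg3. A coverage at least 2 times as large in sg3 was found for 2 members, MUC1 and MUC5B (0 in V2), beside 55.6% of all genes, and a coverage at least 2 times as large in V2 for 0 members, beside 0.807% of all genes. The median ratio of sg3 to V2 over the 6 members with a region in both was 1.21, and over all 12858 genes with a V2 region it was 1.90 (interquartile range 1.45 to 2.66). Of the sg3 regions in the mucin windows, 33 of 54 overlapped a V2 region, which is 61.1% (exact Clopper-Pearson 95% interval 46.9 to 74.1%). Of the V2 regions, 48 of 56 overlapped an sg3 region, which is 85.7% (73.8 to 93.6%). These intervals cover counting error only and treat regions as independent, although 22 sg3 and 31 V2 regions came from the MUC16 window. They are therefore no test against the whole lists, where the shares were 52.4% for sg3 and 86.3% for V2.

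MUC16 encodes a very large membrane-bound mucin that is shed into the blood and used as a tumour antigen. The gene lies on chromosome 19 from 8848844 to 9065751 on the minus strand, so transcription runs from the higher coordinate down. Counted from the first of its RefSeq starts, the higher-coordinate end of the gene, its first part was almost filled with H3K9la in both lists. The mark reached past that start. Regions covered 60.3 kb of the 216.9-kb gene in sg3 (27.8%) and 56.2 kb in V2 (25.9%). With the 50 kb on each side the values were 78.6 kb in sg3 and 74.2 kb in V2, a ratio of 1.06. By covered bases in the window 18 protein-coding genes stood above MUC16 in sg3 and 4 in V2. A long gene has a long window, and by the percentage of the window covered (24.8% in sg3 and 23.4% in V2) 488 genes stood above it in sg3 and 195 in V2.

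When regions up to 1 kb apart were joined, the first start of MUC16 lay in a single block of nearly the same extent in both lists. The block ran from 9006299 to 9082412 in sg3 and from 9006293 to 9082341 in V2, a width of 76.1 kb and 76.0 kb. It was the 4th widest of 30795 sg3 blocks and the widest, rank 1, of 24233 V2 blocks. It reached 16.7 kb upstream of the first start in sg3 and 16.6 kb in V2, and 59.5 kb into the gene from that start in both. Regions filled 96.1% of the block in sg3 and 90.6% in V2. Over the span of both blocks 68166 bases lay in regions of both lists, 4949 in sg3 regions alone and 767 in V2 regions alone. Of the sg3 bases there 93.2% were also in V2, and of the V2 bases 98.9% were also in sg3. With a joining distance of 500 bases the sg3 block was unchanged at 76.1 kb and the widest V2 block over the gene was 37.9 kb. At a -log10 q of at least 10 the blocks were 59.7 kb in sg3 and 74.4 kb in V2. These settings were chosen after the data were seen.

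**Figure D2:**
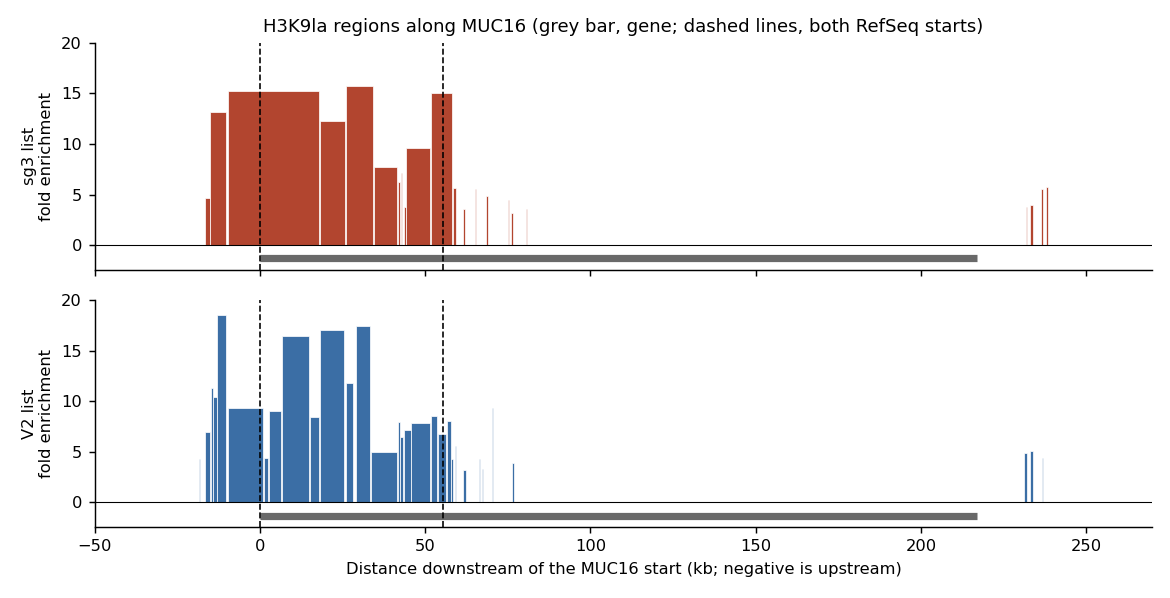
Each bar is 1 H3K9la region along MUC16, its width the extent of the region and its height the fold enrichment at its summit, for the sg3 list (top) and the V2 list (bottom), against the distance downstream of the start in kb. In both lists the regions crowd around and downstream of the first dashed line, the first start, from which distances are counted. There are 22 bars in sg3 and 31 in V2, and heights are not comparable between the lists.

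The lists differed in how the block was divided. It held 12 sg3 regions with a median width of 5611 bases and a widest one of 27706 bases, and 22 V2 regions with a median of 2125 bases and a widest one of 10530 bases. Regions of at least 5 kb numbered 6 in sg3 and 5 in V2. Over the whole window, with the narrow regions outside the block, the order of the medians was the other way, at 762 bases in sg3 and 1264 bases in V2. The widest sg3 region ran from 9047816 to 9075521 over the first start and was the 3rd widest of all 56875 sg3 regions, at fold enrichment 15.2 and -log10 q 110.0. In V2 the same stretch held 5 regions, which covered 94.9% of it, with 4 gaps of 262 to 417 bases between them. The sg3 region from 9031545 to 9039771 met 3 V2 regions with gaps of 241 and 697 bases, and the one from 9007546 to 9013980 met 4 V2 regions with gaps of 147 to 386 bases. The sg3 regions from 9024222 to 9031348 and from 9040126 to 9047447 each met 1 V2 region, which covered 99.1% and 99.5% of them.

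Both RefSeq starts of MUC16 lay inside regions of both lists, and all 300 bases of both promoter windows shown above were covered in sg3 and in V2. Over the first start (9065751) lay the 27706-base region in sg3, with its summit 9773 bases downstream of the start, and a region from 9064878 to 9075407 in V2 (fold enrichment 9.28, -log10 q 54.4), with its summit 5091 bases upstream. Over the second start (9010409) lay the sg3 region from 9007546 to 9013980 (15.03, -log10 q 70.8) and the V2 region from 9009521 to 9011867 (6.72, 24.8). Their summits were close together, 357 bases upstream of that start in sg3 and 255 bases upstream in V2. This start sits near the downstream edge of the block, so counted from it most of the block lies upstream. Promoter windows were covered in 3 of the 5 mucin genes with a sequence in sg3 (MUC16, MUC1 and MUC2) and in 2 in V2 (MUC16 and MUC1), beside 35.8% and 16.7% of all genes with a promoter sequence.

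The strongest regions of the block by -log10 q were the 27706-base one in sg3, at rank 461 of that list, and the one from 9040166 to 9047456 in V2 (fold enrichment 17.0, -log10 q 101.9), at rank 222 of that list. By fold enrichment the highest in the window were an sg3 region with 15.7, from 9031545 to 9039771, and a V2 region with 18.5, from 9075952 to 9078684, upstream of the gene. Several summits nearly coincided. One pair lay 22496 bases downstream of the first start in sg3 and 22514 bases in V2, and another 9773 bases downstream in sg3 and 9767 bases in V2. The median fold enrichment over the window was 5.63 in sg3 and 7.16 in V2, beside 4.97 and 5.22 over the whole lists.

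Past the block the mark thinned out and then was missing from the lists. In bins of 10 kb counted from the first start, coverage lay between 89.2% and 100.0% in sg3 over the first 60 kb of the gene and between 75.8% and 97.6% in V2. From 60 to 70 kb it was 14.2% in sg3 and 17.6% in V2, and from 70 to 80 kb 13.7% and 9.15%. The farthest region inside the gene reached 80.9 kb from the start in sg3 and 76.8 kb in V2. The rest of the gene, 136.0 kb in sg3 and 140.1 kb in V2, or 62.7% and 64.6% of its length, held no region. Beyond it lay 4 sg3 regions and 3 V2 regions within ZNF558 or its surroundings, a zinc finger gene, 14204 to 20923 bases from MUC16, so they are not regions of MUC16 itself. Of the regions lying 60 to 80 kb into the gene, 3 of 5 in sg3 and 3 of 5 in V2 had no partner in the other list. Over the whole lists 52.4% of sg3 regions and 86.3% of V2 regions had one, and 5 regions per list are too few to set against these shares. The V2 region from 8995174 to 8995608 had a fold enrichment of 9.33 and no sg3 region over it, and the sg3 region from 9000326 to 9000775 had 5.54 and no V2 region over it.

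**Figure D3:**
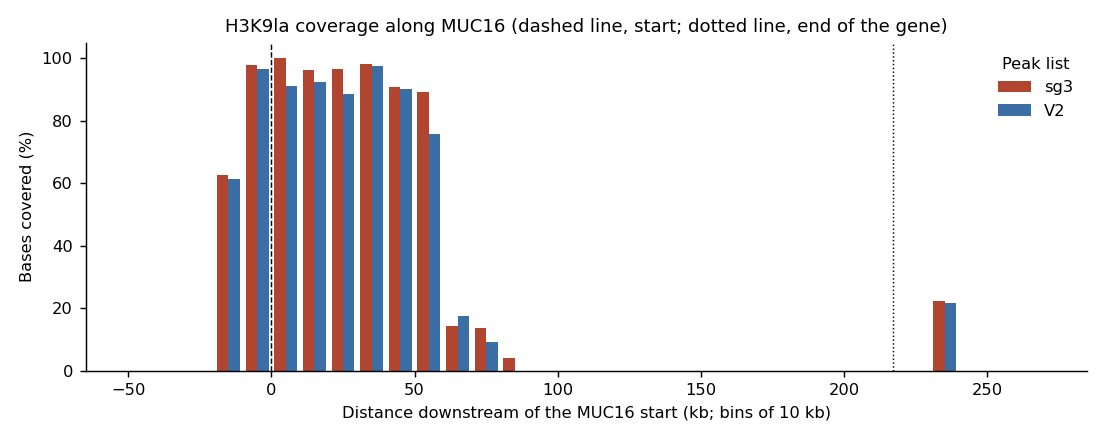
Bars show the percentage of bases covered by H3K9la regions in bins of 10 kb along MUC16 and its flanks, sg3 left and V2 right in each pair. Coverage in the first 60 kb of the gene is at least 89.2% in sg3 and 75.8% in V2 and is 0 in both from 90 kb to the end of the gene.

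The MUC16 ratio of 1.06 was low among genes. Of the 12858 genes with a V2 region in their window, 745 (5.79%) had a lower ratio of sg3 to V2. Ratios were lower where more of the window was covered in V2. The V2 coverage is also the denominator of the ratio, so choosing genes by it lowers the ratio by construction. Among 329 genes with at least 20% of the window covered in V2, a limit set after the data were seen, the median ratio was 1.33 (interquartile range 1.224 to 1.503), and 11 genes (3.34%) had a lower ratio than MUC16. The 5 genes whose pair of coverage percentages was nearest to that of MUC16, outside its own neighbourhood, were GPRC5A (26.1% in sg3 and 22.8% in V2), TMSB10 (26.6% and 23.0%), SYT5 (26.6% and 23.1%), GIPR (26.8% and 22.9%) and TXN2 (23.8% and 21.3%). They lay 1.49, 1.81, 1.84, 2.09 and 2.28 percentage points from it, a distance over 2 lists. With genes of 1.02 to 26.4 kb, most of their windows is flanking sequence.

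**Figure D4:**
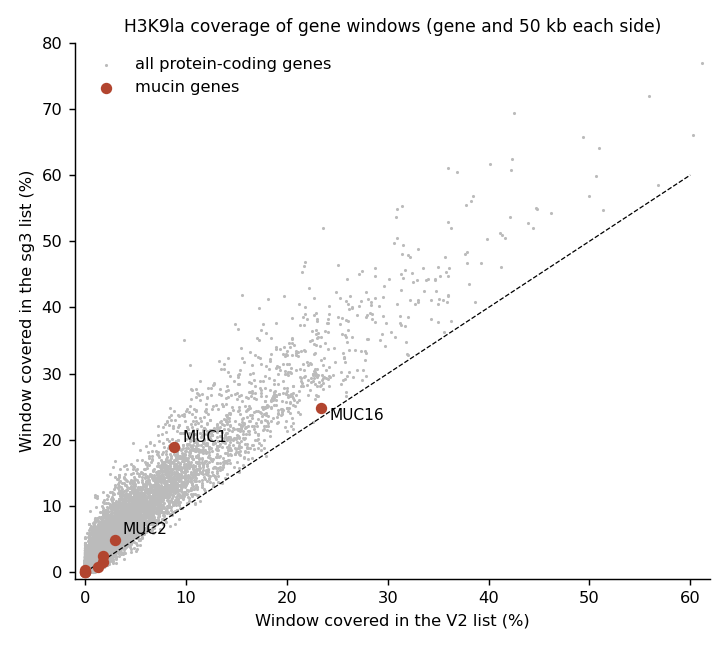
Each grey point is a protein-coding gene, placed by the percentage of its window covered in V2 (x axis) and in sg3 (y axis), with the 10 mucin genes in red; on the dashed line both are equal. MUC16, at 24.8% in sg3 and 23.4% in V2, lies by the line at the lower edge of the points, and MUC1, at 18.9% and 8.84%, lies among them.

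MUC1 encodes a membrane-bound mucin found on most glandular epithelia, with a cytoplasmic tail that takes part in signalling. The gene is short, from 155185824 to 155192915 on chromosome 1 (minus strand), and its neighbours lie close. Regions covered 61.8% of the gene in sg3 and 32.2% in V2, and 20.2 kb of its window in sg3 against 9.46 kb in V2, a ratio of 2.13. That ratio is close to the median of all genes, and ranged from 1.77 to 3.08 under other settings. All 14 V2 regions of the window overlapped an sg3 region, and 8 of the 17 sg3 regions had no V2 partner. These 8 had -log10 q values of 5.41 to 17.8, while the strongest sg3 region of the window had 65.0. All 8 lay outside MUC1, and the 4 sg3 regions overlapping the gene each had a V2 partner. Over the whole lists 52.4% of sg3 regions and 86.3% of V2 regions overlapped a region of the other list.

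The MUC1 start and the promoter shown above lay in a region of both lists. In sg3 this region extended from 155191689 to 155196487 (fold enrichment 6.72, -log10 q 65.0), and the V2 region from 155192425 to 155194888 (4.93, 39.0). The summits were 1729 bases upstream of the start in sg3 and 1790 bases upstream in V2, towards THBS3, a thrombospondin gene, so both genes share these regions. A 4470-base sg3 region at the other end of the gene, from 155183642 to 155188111 (6.76, 32.9), also reached TRIM46. In V2 that stretch held 3 regions of 444 to 786 bases, with fold enrichments of 3.55 to 3.80. Inside the gene a pair of narrow regions lay at nearly the same places in both lists, one from 155188412 to 155188845 in sg3 (155188423 to 155188820 in V2) and one from 155189437 to 155189873 in sg3 (155189438 to 155189932 in V2).

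MUC4, a membrane-bound mucin that binds the receptor ERBB2, lies on chromosome 3 from 195746771 to 195811929 (minus strand). No region overlapped the gene in either list. Upstream of its start the nearest region was 5.03 kb away in sg3 (195816955 to 195817757, fold enrichment 3.02) and 4.13 kb away in V2 (195816058 to 195817018, 3.65), with only 7.97% of the sg3 region covered by V2. A pair of further sg3 regions lay 8348 and 9767 bases upstream (3.98 and 5.46), and V2 had none there. The 6 sg3 regions of the window covered 4.03 kb and the 4 V2 regions 2.98 kb, but 3 in each list lay in or within 5 kb of MUC20, and the ratio of 1.35 ranged from 0.153 to 2.31 under other settings.

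MUC20, a membrane-associated mucin known as a binding partner of the MET receptor, lies beside MUC4 from 195720978 to 195733551. A region lay over its lower-coordinate end in both lists, from 195720243 to 195721155 in sg3 (fold enrichment 3.32, -log10 q 6.41) and from 195720055 to 195721169 in V2 (7.60, 11.7). A second region just inside the gene was at different places, from 195722391 to 195722788 in sg3 (4.40) and from 195721622 to 195721980 in V2 (4.11). Coverage of the window was 1.74 kb in sg3 and 2.01 kb in V2, and the ratio of 0.865 ranged from 0.412 to 2.11 under other settings. The gene table lists a pseudogene, MUC20P1, on the same chromosome from 195618625 to 195620237. Since the handling of multiply aligned reads is unknown, the values at MUC20 are uncertain.

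**Figure D5:**
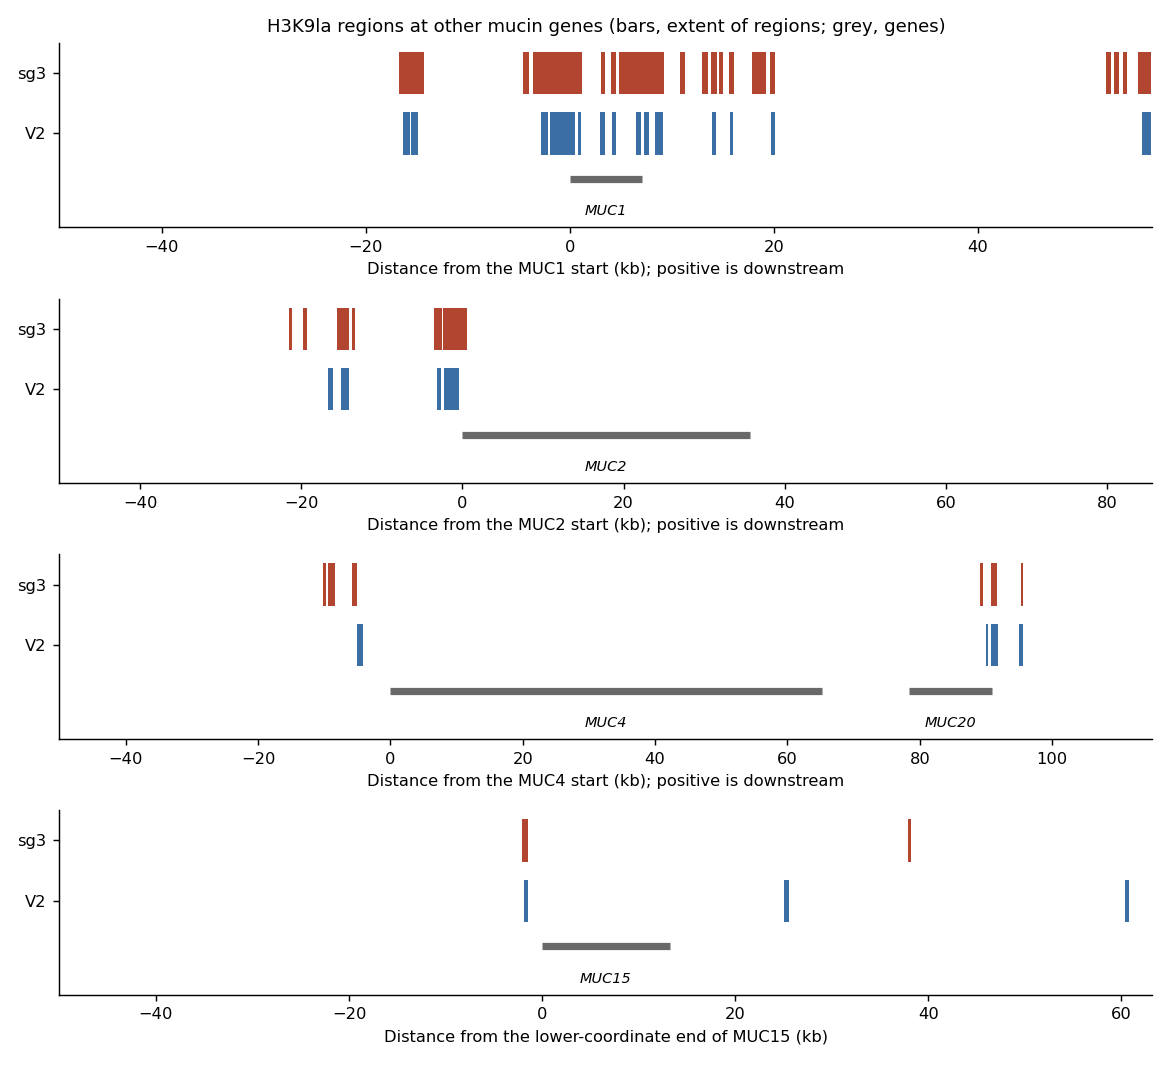
Bars mark the extent of H3K9la regions in the windows of MUC1, MUC2, MUC4 with MUC20, and MUC15, with the sg3 list above the V2 list in each panel, against the distance in kb from the gene's start, or from its lower-coordinate end for MUC15. Regions surround the MUC1 start in both lists, stop at the MUC2 start, and are missing from the body of MUC4.

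MUC2, the main gel-forming mucin of the intestine, lies on chromosome 11 from 1074874 to 1110508 (plus strand). Its regions were all upstream or at the start, and none lay deeper in the gene. The strongest ran from 1072462 to 1075411 in sg3, over the start (fold enrichment 13.0, -log10 q 45.4), and from 1072536 to 1074497 in V2 (11.5, 32.3), ending 377 bases before the start. The promoter shown above was therefore covered in full in sg3 and not at all in V2. Both summits lay well upstream and near each other, 1103 bases before the start in sg3 and 1080 bases in V2. Next to it, a region was shared that spanned 1071399 to 1072285 in sg3 (7.68) and 1071754 to 1072201 in V2 (5.98), and further upstream one that spanned 1059336 to 1060857 in sg3 (8.59) and 1059863 to 1060836 in V2 (5.02). These regions and the strongest one all overlap LOC107987157, an lncRNA gene, in both lists. In V2 the strongest does not overlap MUC2 itself. The window had 6.55 kb covered in sg3 and 3.99 kb in V2, a ratio of 1.64. At a -log10 q of at least 10 it was 3.15.

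MUC5AC and MUC5B, the gel-forming mucins of the airways and, for MUC5AC, of the stomach surface, lie on the same stretch of chromosome 11 as MUC2, from 1157953 to 1201138 and from 1223066 to 1262172. MUC5AC had no region in its window in either list, and the nearest was the one at MUC2, 82.5 kb away in sg3 and 83.5 kb away in V2. The MUC5B window held 1 sg3 region of 424 bases (fold enrichment 6.61, -log10 q 26.5) that lay 47.8 kb from the gene beside TOLLIP, just inside the 50-kb limit. The nearest V2 region was 120.9 kb from MUC5B.

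The remaining membrane-bound mucins had few or no regions. MUC15 lies on chromosome 11 from 26559032 to 26572263, within the span of ANO3, a membrane protein gene of the anoctamin family. No region overlapped MUC15, and the nearest lay 1495 bases away in sg3 (26556982 to 26557537, fold enrichment 5.61) and 1471 bases away in V2 (26557119 to 26557561, 4.55). The V2 list had a region from 26584061 to 26584605 (10.1, -log10 q 21.6) with no sg3 partner, and the sg3 list one from 26596893 to 26597271 (4.69, 6.19) with no V2 partner. All of these lie in ANO3. The window had 0.935 kb covered in sg3 and 1.40 kb in V2, a ratio of 0.666 that was 1.26 with windows of 10 kb. MUC13 (chromosome 3, 124905442 to 124934751), a mucin of intestinal epithelium, had its nearest region 67.9 kb away in sg3 and 258.2 kb away in V2. MUC21 (chromosome 6, 30983718 to 30989903), a mucin found on squamous epithelium, had its nearest 98.2 kb away in each list, at DDR1. Records on alternate contigs of chromosome 6 numbered 635 in sg3 and 405 in V2. The gene table gives no positions on those contigs, so copies of MUC21 there were not analysed here.

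Regions near the limit of 50 kb were found at MUC5B, above, and at MUC1 and MUC15. The farthest region inside it was at MUC1, 48.6 kb away in sg3 (1290 bases, fold enrichment 6.67) and 49.0 kb away in V2 (883 bases, 4.04). The nearest outside it was also at MUC1, 50048 bases away in sg3 (11743 bases wide, 10.2) and 50140 bases away in V2 (381 bases, 5.11), near EFNA1 and SLC50A1. At MUC15 a V2 region lay 47.2 kb away, inside the limit (415 bases, 6.28), and an sg3 region 51.5 kb away, outside it (410 bases, 4.48). At 100 kb the number of mucin genes with more covered bases in sg3 was 9 in place of 5.

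Other genes of the mucin system were counted by a region overlapping the gene or within 1 kb of it, which 55.6% of all protein-coding genes had in sg3 and 37.6% in V2. The share of all genes with a region in sg3 alone was not counted. Genes named below as in sg3 alone, mucin-related or marker, are therefore a listing and not a result about their group. Of the 10 mucins above, 4 met this in sg3 and 4 in V2. Of 12 other mucins and mucin-like genes, 4 met it in sg3 and 3 in V2. MUC12, a membrane-bound mucin of the intestine, had a 4874-base region in sg3 (fold enrichment 8.99) and one of 2685 bases in V2 (7.93), and its neighbour MUC17 shared the sg3 region. CD164, a sialomucin, had 6.38 in sg3 and 6.11 in V2. MUC3A had a region in sg3 alone (3.57). MUC6, MUC7, MUC19, MUC22, MUCL1, MUCL3, EMCN and OVGP1 had none in either list.

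Of 24 enzymes of mucin O-glycosylation, 19 had a region in sg3 and 14 in V2, which is 79.2% and 58.3%, and the 14 were in both lists. The 5 in sg3 alone were GALNT11 (fold enrichment 5.10), GALNT10 (5.61), GALNT5 (5.15) and GALNT4 (4.29), which start O-glycan chains, and the fucosyltransferase gene FUT2. The shared members included GALNT2, GALNT3, GALNT7, the core synthase gene C1GALT1, its chaperone gene C1GALT1C1 and the branching enzyme gene GCNT3. Of 18 genes of mucus secretion and mucin partners, 11 had a region in sg3 and 7 in V2. The 4 in sg3 alone were AGR2, a mucin-folding factor (6.82), FCGBP (4.57), FOXA2 (2.87) and TFF1, a trefoil peptide (4.56). MSLN, which encodes mesothelin, the cell-surface partner of MUC16, and LGALS3, a mucin-binding lectin, had regions in both. TFF2, TFF3, SPDEF, FOXA3, CLCA1, ZG16 and BPIFB1 had none in either list.

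The labelled cell type was set against marker genes by the same count. Squamous epithelium markers had a region at 12 of 12 genes in sg3 and 9 of 12 in V2, with KRT5, IVL and TGM1 in sg3 alone. Glandular or columnar markers had one at 11 of 14 in sg3 (78.6%) and 9 of 14 in V2 (64.3%). Blood markers had one at 3 of 7 in sg3 (42.9%) and 2 of 7 in V2 (28.6%). For fibroblast and endothelium markers it was 4 of 7 in both (57.1%). Of all protein-coding genes 55.6% had one in sg3 and 37.6% in V2. TP63, a squamous factor, had 43770 bases of its gene covered in sg3 and 24838 in V2, and KRT8, a keratin of simple epithelia, had 31310 in sg3 and 25735 in V2. VWF, which encodes an endothelial clotting protein, had 34212 in sg3 and 23726 in V2. The part of cell identity in the mucin results was not tested.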

How the data were processed

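The authors' 2 peak lists of H3K9la ChIP-seq in KYSE30 cells were used, 1 for the sg3 arm and 1 for the V2 arm. The submitters' processing notes name MACS2 2.2.9.1 as peak caller among the tools, with Bowtie2 2.5.1, Trim Galore 0.6.10, FastQC 0.12.1 and SAMtools 1.18, and the build hg38. Call settings, control library, multiply aligned reads and depth are not given in the sources. The lists, of 56875 records in sg3 and 40332 in V2, hold the authors' fold enrichment (a ratio at the summit), -log10 p and -log10 q, a deposited integer score that was not used, and the summit offset. Covered bases depend on depth and peak calling as well as on the mark. Regions covered 54.8 Mb in sg3 and 31.3 Mb in V2, with median widths of 618 and 560 bases.

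Regions were placed on RefSeq genes (GRCh38.p14, the build of the lists) by symbol, and all 10 members matched. Lists overlapped where they shared at least 1 base. Interval code (Python 3.11.15, pandas 2.3.3, NumPy 2.4.6, SciPy 1.17.1) was checked on simulated regions. Members and gene lists were chosen with earlier results of these data known. With 1 list per arm no test was made. From each further gene list up to 4 members were named, those in sg3 alone first and then by -log10 q, and other genes of those lists were named after their values were seen. Alternatives changed the window, the thresholds, the list length, the merging of records and the overlap.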

Additional observations from a re-analysis of the deposited data

How the results depend on the processing

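Under other settings (windows of 10 or 100 kb, a -log10 q of at least 5 or 10, a fold enrichment of at least 4, lists of equal length, records within 1 kb merged, and overlap over at least 50% of a region), 61 of 68 values stayed close to those reported, that is, within 1.5 times for counts and the pooled ratio and within the exact interval for shares. The exceptions were the number of sg3 regions in the mucin windows, 54 as reported, which was 35 with windows of 10 kb, 35 at a -log10 q of at least 10 and 28 after merging; that of V2 regions, 56 as reported, which was 33 at that threshold and 26 after merging; the members with more sg3 than V2 bases, 9 in place of 5 with windows of 100 kb; and the share of V2 regions overlapping an sg3 region, 73.2% in lists of equal length. Narrower windows, stricter thresholds and merging leave fewer regions by construction. Lists of equal length keep all 40332 V2 records and cut only sg3, so by construction the V2 share can only fall or stay there. For the change with windows of 100 kb the cause was not tested. The pooled ratio of covered bases stayed between 1.10 and 1.30. The 68 values leave out the ratios of single members, of which 10 of 40 moved beyond 1.5 times. The ratio at MUC16 stayed between 1.01 and 1.08, while those at MUC4 (0.153 to 2.31), MUC15 (0.396 to 1.26) and MUC20 (0.412 to 2.11) crossed 1. MUC20 had no ratio at a -log10 q of at least 10 or in lists of equal length. The MUC16 block was 78.6 kb in sg3 and 78.0 kb in V2 with a joining distance of 2 kb, at ranks 13 and 4. No paired analysis was possible because each arm has 1 list and no test was made. Read depth is unknown, so a gene without a region is without one at the authors' threshold only.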
